A study of Mus musculus with 4 samples.

Results

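Keratinocyte-like barcodes were picked out of single-nucleus RNA libraries of mouse back skin 1 day after wounding. A barcode stands for 1 droplet and, ideally, 1 nucleus. A barcode was a member when it had at least 100 genes detected, at most 5% mitochondrial counts and a transcript of at least 2 of 9 gate genes, which are Krt5, Krt14, Dsp, Perp, Dsg3, Dsc3, Tmprss13, Dsg1a and Trp63. The 2 wounded libraries gave 950 members, 218 of 4621 barcodes that passed the quality filter in wounded mouse 1 and 732 of 16075 in wounded mouse 2. The 4 libraries together held 37499 such barcodes. The wounded group was 2 wild-type C57BL/6 mice aged 8 weeks with full-thickness excisional wounds taken at 1 day, and the unwounded group was 2 wild-type C57BL/6 mice aged 8 weeks with intact back skin. Each mouse gave 1 library, so n = 2 mice per group throughout. The same gate picked 1137 barcodes in unwounded skin, 465 of 6964 in mouse 1 and 672 of 9839 in mouse 2.

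Keratinocytes form the epidermis. Basal cells are anchored to the basement membrane by hemidesmosomes, which hold integrin alpha 6 beta 4 and collagen XVII. Cells that leave the basal layer are joined by desmosomes, change their keratins and make the lipids of the skin barrier. After wounding, keratinocytes at the edge switch on the keratins Krt6a, Krt6b, Krt16 and Krt17 and begin to migrate over the wound bed.

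Levels are given as CPM, the unique transcript counts (UMIs) of a gene per 1000000 UMIs summed over the barcodes of 1 class in 1 library. The gate used measured values, so the gate genes are not results, and genes expressed together with them are raised in members by the choice itself. The difference between members and the other barcodes of the same wounded libraries is therefore a description. Differences between wounded and unwounded mice were tested with edgeR's quasi-likelihood test on the summed counts, with Benjamini-Hochberg adjustment over all genes tested and a threshold of 0.05.

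The wounded libraries were shallow and unlike the unwounded ones in several measures. Members held 109832 and 207405 UMIs in all in wounded mice 1 and 2, against 705524 and 546046 UMIs in the unwounded gated barcodes. The median member had 271.5 and 225 UMIs in wounded skin, against 1098 and 531 in unwounded skin. A gene with 0 UMIs could still have a level of up to 27.3 and 14.5 CPM in the wounded sums, taking 3 counts as the limit for counting error, against 4.25 and 5.49 CPM in the unwounded sums. Malat1, an abundant RNA that stays in the nucleus, made up 0.161% and 0.437% of the wounded members' UMIs and 7.54% and 6.71% of the UMIs in unwounded gated barcodes. The 1466 olfactory and vomeronasal receptor genes were taken here as little expressed in skin. They reached 5955 and 5067 CPM in wounded members against 122 and 167 CPM in unwounded gated barcodes. Applied to the length of every gene from start to end, that receptor density would account for 57.9% and 49.2% of the wounded members' UMIs, against 1.18% and 1.62% in unwounded gated barcodes. A gene's level divided by this length-based value is called observed over length-expected here. The part of these library differences in the results was not tested. The 2 wounded libraries shared 26 barcode sequences, and no shared sequence was a member in both.

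Many members sat close to the gate. In wounded mouse 1, 107 of the 218 members had exactly 2 gate genes, with a median of 274 UMIs, and 563 barcodes just outside had 1 gate gene, with a median of 319 UMIs. In wounded mouse 2, 480 of the 732 members had exactly 2, with a median of 221 UMIs, and 2215 barcodes had 1, with a median of 185 UMIs. In wounded mouse 2, 27 gated barcodes fell just short of 100 genes and 37 members had fewer than 10 genes more than that. Trp63, the p63 transcription factor of basal epithelia, admitted the most members, with a UMI in 73.9% and 64.3% of them, and the desmosomal cadherin Dsc3 was next, in 67.9% and 61.1%. Krt5, the type II keratin of basal cells, had a UMI in only 1.83% and 1.91% of members.

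The keratinocyte label was checked on 24 keratinocyte markers outside the gate. Their summed level was 2304 and 2314 CPM in members against 531 and 725 CPM in the other barcodes of the same wounded libraries. At least 1 UMI of them was present in 53.7% and 39.9% of members, against 14.97% and 13.5% of the other wounded barcodes. Over members, this sum was 8.64 and 10.2 times its length-expected value, against 1.80 and 2.65 times in the other wounded barcodes. Taken singly, 7 of the 24 were higher in members at the threshold and 17 did not pass, beside 0.568% of all genes that were higher. Only 11 of the 24 reached 5 times the length-expected value in members of both mice. Members thus carried more of these markers in sum, but 1 UMI alone does not place a barcode. UMIs of genes that mark other cell types were present in members too, in part at the level that gene length gives. Their sums in members were 1.47 and 2.05 times the length-expected value for macrophage markers, 1.47 and 1.84 times for skeletal muscle markers, 4.03 and 6.20 times for neutrophil markers and 4.63 and 6.31 times for fibroblast markers. The 10 fibroblast markers summed to 719 and 834 CPM in members and 1198 and 1137 CPM in the other wounded barcodes, with Dpt at 0 in members of wounded mouse 1, and Tnfaip6 alone gave 40 and 88 of the 79 and 173 UMIs. The neutrophil list summed to 155 and 203 CPM in members, against 167 and 223 CPM, the macrophage list to 346 and 410 CPM, against 365 and 381 CPM, and the skeletal muscle list to 519 and 550 CPM, against 546 and 587 CPM. Defining markers at 0 in both member sums were Ly6g of the 10 neutrophil markers and Cd68, Lyz2 and Ms4a7 of the 10 macrophage markers. The unwounded gated barcodes held more fibroblast and muscle RNA and less neutrophil RNA. Their neutrophil sum was 8.50 and 10.99 CPM and their macrophage sum 313 and 449 CPM. Their fibroblast sum was 5137 and 6792 CPM and their muscle sum 5528 and 5137 CPM, and 96.6% and 97.5% of them had a fibroblast marker UMI. The 24 keratinocyte markers summed to 2252 and 2064 CPM in those unwounded barcodes, against 265 and 536 CPM in the other unwounded barcodes. What these other markers contribute to each difference between wounded and unwounded members was not tested.

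Within the wounded libraries, 103 of 18129 genes were higher in members at the threshold, or 0.568%, and 21 were lower, or 0.116%. The gate chose the barcodes of this contrast, so nothing is read from the counts. The p-values behind them use a spread estimated over the sums of all 4 libraries, not of the 2 wounded mice alone. The 12 genes with the largest differences, at 50 CPM or more and at least 5 times the length-expected value in both mice, were Aadacl2, Aadac, Krt16, Pla2g4e, Fat2, Adgrf4, Col17a1, Fermt1, Dsc1, Pkp3, Sdr9c7 and Sult2b1. They fall into genes of attachment and adhesion, a keratin, a receptor, and enzymes of lipids and small molecules.

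**Figure D1:**
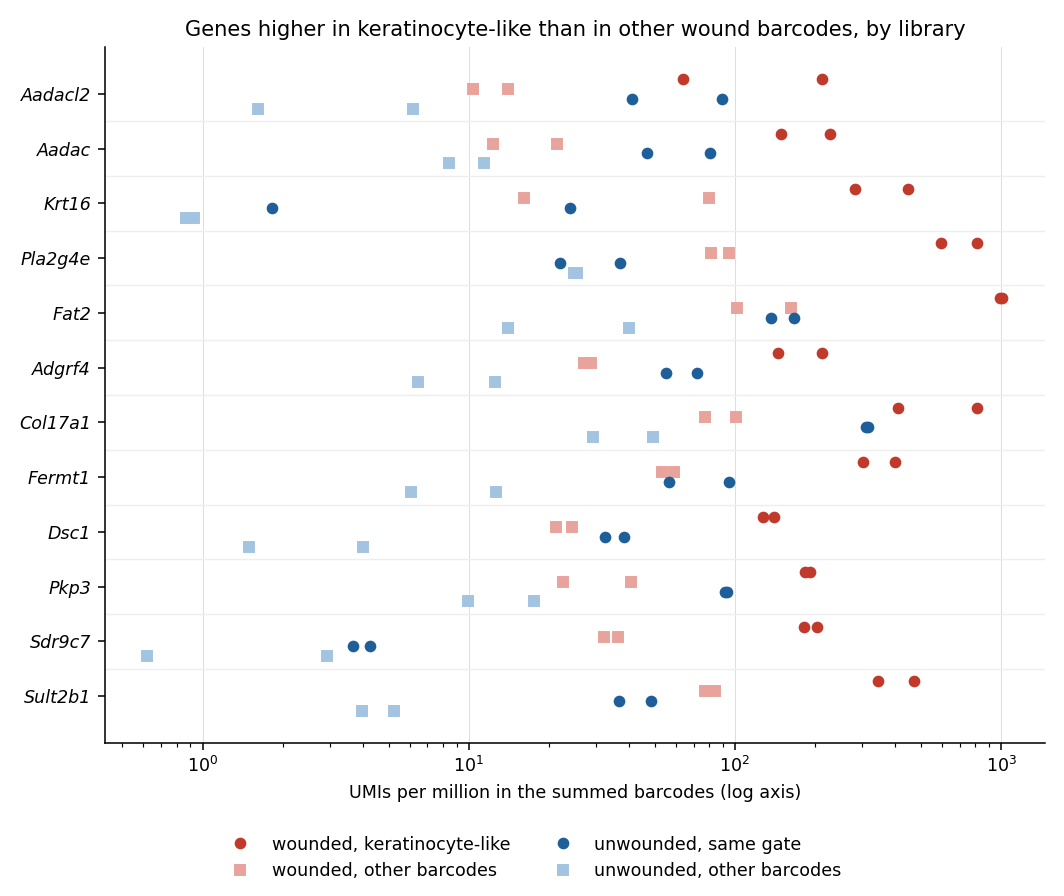
Levels in CPM (log axis) of the 12 genes that most set members apart, with 1 point per library, for wounded keratinocyte-like barcodes, other wounded barcodes, unwounded barcodes passing the same gate and other unwounded barcodes. The 12 genes were chosen for a higher level in members, and in each both wounded keratinocyte-like sums exceeded both other wounded sums. Krt16 and Pla2g4e were at 36.9 CPM or less in both unwounded gated sums.

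Attachment genes were led by Col17a1 (chr19:47646344-47692094, GRCm38), which encodes collagen XVII of the hemidesmosome. Col17a1 stood at 810 and 410 CPM in members and at 76.9 and 101 CPM in the other wounded barcodes, a log2 difference of 2.60 ± 0.19 (SE). Its partner Itgb4, integrin beta 4, stood at 346 and 366 CPM in members against 69.2 and 78.5 CPM, a log2 difference of 2.22 ± 0.23. Itga6, integrin alpha 6, differed less, at 219 and 183 CPM in members against 84.7 and 88.9 CPM. Fermt1, kindlin-1, which activates integrins in keratinocytes, stood at 401 and 304 CPM in members against 53.0 and 59.3 CPM. Fat2, an atypical cadherin of epithelial cells, had the steadiest level of the 12, at 1011 and 988 CPM in members against 102 and 163 CPM. All 5 genes had passed the threshold as higher in members, so member sums above the other wounded sums follow from the choice and are a description.

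Among junction genes outside the gate, Dsc1, a desmosomal cadherin of the upper epidermal layers, stood at 127 and 140 CPM in members against 21.3 and 24.4 CPM in the other wounded barcodes. Pkp3, the desmosomal plaque protein plakophilin 3, stood at 191 and 183 CPM in members against 22.6 and 40.6 CPM. Evpl, envoplakin of the cornified envelope, stood at 36.4 and 91.6 CPM in members against 13.6 and 24.1 CPM. The Dsc1 difference missed the threshold when wounded mouse 2 was left out, and that of Evpl when either wounded mouse was.

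Of the keratins of activated epidermis, Krt16 (chr11:100246091-100248902, GRCm38) was the most abundant. It stood at 282 and 448 CPM in members, from 31 and 93 UMIs, against 16.2 and 80.05 CPM in the other wounded barcodes, a log2 difference of 2.94 ± 0.27. The member level was 216 and 403 times the length-expected value, since the gene is short. A Krt16 UMI was found in 11.5% of members in wounded mouse 1 (95% Wilson interval 7.89% to 16.4%) and 10.4% in wounded mouse 2 (8.38% to 12.8%), against 0.522% and 1.64% of the other wounded barcodes. Krt6a, a type II partner of Krt16, was sparse, at 36.4 and 67.5 CPM in members, from 4 and 14 UMIs, against 1.94 and 14.4 CPM. Krt6b stood at 36.4 and 43.4 CPM in members against 1.94 and 12.2 CPM. The Krt6a difference missed the threshold when either wounded mouse was left out, and that of Krt6b when wounded mouse 1 or either unwounded mouse was. Krt6a and Krt6b are near-identical, and Krt16 resembles Krt14 and Krt17, so how reads were divided among them is uncertain.

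Among the enzymes, Pla2g4e had the highest level in members. Pla2g4e (chr2:120166412-120245335, GRCm38), a cytosolic phospholipase A2 of the epsilon type, stood at 810 and 593 CPM in members and at 81.5 and 94.7 CPM in the other wounded barcodes, a log2 difference of 2.89 ± 0.19. Sult2b1, a sulfotransferase that makes cholesterol sulfate in the upper epidermis, stood at 346 and 473 CPM in members against 76.9 and 84.3 CPM. Sdr9c7, a dehydrogenase in the making of barrier lipids, stood at 182 and 203 CPM in members against 32.3 and 36.4 CPM. The esterase family gene Aadac stood at 228 and 149 CPM in members against 12.3 and 21.4 CPM. Its relative Aadacl2 stood at 63.7 and 212 CPM in members against 10.3 and 14.1 CPM, with unequal levels in the 2 mice. Adgrf4, an adhesion G protein-coupled receptor, stood at 146 and 212 CPM in members against 27.2 and 28.7 CPM. The differences of Sdr9c7 and Aadacl2 missed the threshold when wounded mouse 2 was left out.

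Promoters of these genes are shown because AP-1 and grainyhead factors are known regulators of epidermal genes, and only 2 of the 10 windows held either motif. Of the 12 genes, 9 had a RefSeq window used here (GRCm38.p6), read over the 250 bases before the start and on both strands. The AP-1 letters TGANTCA occurred in 2 windows, and 6.75% of 32851 windows of all genes hold them. The grainyhead letters AACCNGTT occurred in 0, and 1.79% of all windows hold them. The Adgrf4 window is chr17:42692285-42692534 on the minus strand and the Sult2b1 window is chr7:45742479-45742728 on the minus strand. Both are printed 5′ to 3′ with the AP-1 matches in capitals, and a match of letters is no evidence of binding.
Adgrf4: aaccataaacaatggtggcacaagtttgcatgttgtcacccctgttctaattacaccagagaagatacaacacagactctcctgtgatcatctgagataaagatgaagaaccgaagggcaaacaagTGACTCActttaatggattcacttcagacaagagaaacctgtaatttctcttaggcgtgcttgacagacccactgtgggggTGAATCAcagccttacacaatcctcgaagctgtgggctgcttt
Sult2b1: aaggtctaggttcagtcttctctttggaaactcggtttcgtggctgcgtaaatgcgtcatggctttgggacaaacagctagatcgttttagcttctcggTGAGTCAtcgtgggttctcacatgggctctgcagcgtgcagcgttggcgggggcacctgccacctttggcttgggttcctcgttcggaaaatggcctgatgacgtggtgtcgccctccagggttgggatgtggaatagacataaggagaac

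Genes lower in members than in the other wounded barcodes were few. Tnfaip6, a hyaluronan-binding protein made by inflamed stroma, stood at 364 and 424 CPM in members against 771 and 612 CPM, a log2 difference of -0.80 ± 0.18. Sparc, a matrix protein of fibroblasts, stood at 45.5 and 82.0 CPM in members against 161 and 140 CPM. Cd300lf, a receptor of myeloid cells, stood at 155 and 203 CPM in members against 425 and 300 CPM. These 3 genes were named for being lower in members, so both member sums lying below both other wounded sums is a description. Sparc was chosen after its values were seen.

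Some genes outside the gate were higher in barcodes with more gate genes. Krt16 stood at 12.8 CPM in barcodes of wounded mouse 1 with no gate gene, 30.4 CPM with 1, 113 CPM with 2, 326 CPM with 3 and 801 CPM with 4 or more. In wounded mouse 2 it stood at 75.2, 104, 189, 856 and 1013 CPM in the same order. Pla2g4e stood at 66.4, 145, 373, 587 and 2746 CPM in wounded mouse 1 and at 80.7, 162, 392.5, 996 and 851 CPM in wounded mouse 2. Both genes were thus above their lowest level already in the barcodes with 1 gate gene, which are not members. Col17a1 stood at 2574 CPM in wounded mouse 1 but 486 CPM in wounded mouse 2 in barcodes with 4 or more gate genes. Tnfaip6 was lowest at 4 or more gate genes in both mice, at 114 and 202 CPM. These steps are a description, since the gate genes chose the bins.

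**Figure D2:**
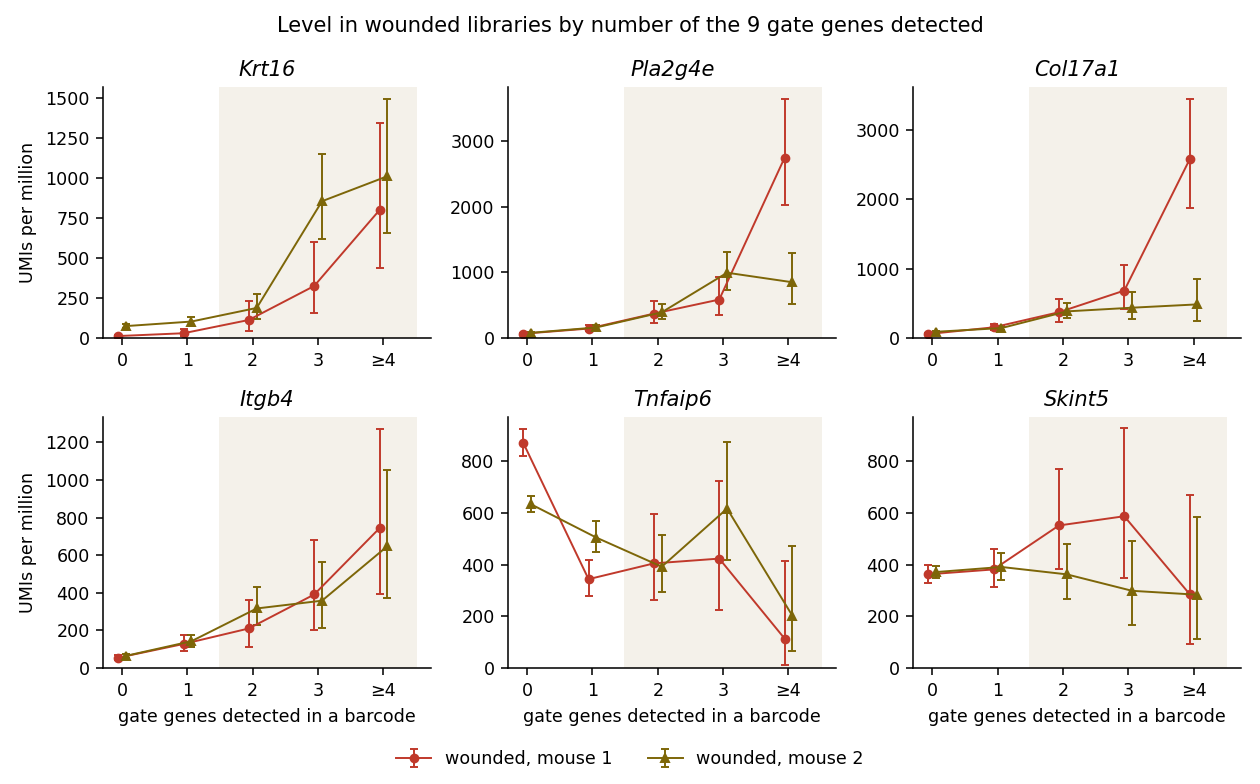
Levels in CPM of 6 genes outside the gate in wounded barcodes grouped by the number of gate genes with a UMI, with 1 line per wounded mouse, exact Poisson 95% intervals for counting error and the members shaded. Krt16, Pla2g4e, Col17a1 and Itgb4 were higher in barcodes with 3 gate genes than in those with none in both mice, while Skint5 stayed between 284 and 587 CPM.

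Members did not carry these genes as one set. Krt16 had a UMI in 25 members of wounded mouse 1 and 76 of wounded mouse 2. Among members with a Krt16 UMI, 48.0% and 27.6% also had Pla2g4e, against 18.7% and 10.7% of members without one. Plbd1, a phospholipase B domain protein, was found in 56.0% and 46.1% of members with Krt16, against 30.1% and 18.8% of those without. Sult2b1 was found in 32% and 15.8% of members with Krt16, against 9.33% and 7.93%, and Dsc1 in 16% and 10.5%, against 4.66% and 1.83%. Each of these 4 partners was thus more frequent beside Krt16 in both mice. Attachment genes were not. Col17a1 was found in 16% and 5.26% of members with Krt16, against 19.2% and 9.60% of those without, and Itgb4 in 8.00% and 1.32%, against 12.95% and 8.54%.

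Col17a1 had a UMI in 41 and 67 members. Itgb4 was found in 34.1% and 23.9% of members with Col17a1, against 7.34% and 6.17% of those without, and Itga6 in 24.4% and 10.4%, against 6.78% and 4.21%. Fat2 was found in 53.7% and 37.3% of members with Col17a1, against 23.2% and 18.3%, and Tgfbi, a matrix protein that binds integrins, in 61.0% and 58.2%, against 40.7% and 39.5%. Aadac, by contrast, was found in 0 of the 41 and 67 members with Col17a1, which allows shares of up to 8.57% and 5.42% by the Wilson interval, against 12.4% and 4.36% of those without. Dsc1 was found in 0% and 1.49% of members with Col17a1, against 7.34% and 2.86%. Median UMIs were 274 and 270 in members with Col17a1, against 266 and 220 in those without, and 246 and 239.5 in members with Krt16, against 274 and 222.5. Members come from 2 mice and are not replicates, so these shares carry no test, and the partner genes shown were chosen after their values were seen.

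**Figure D3:**
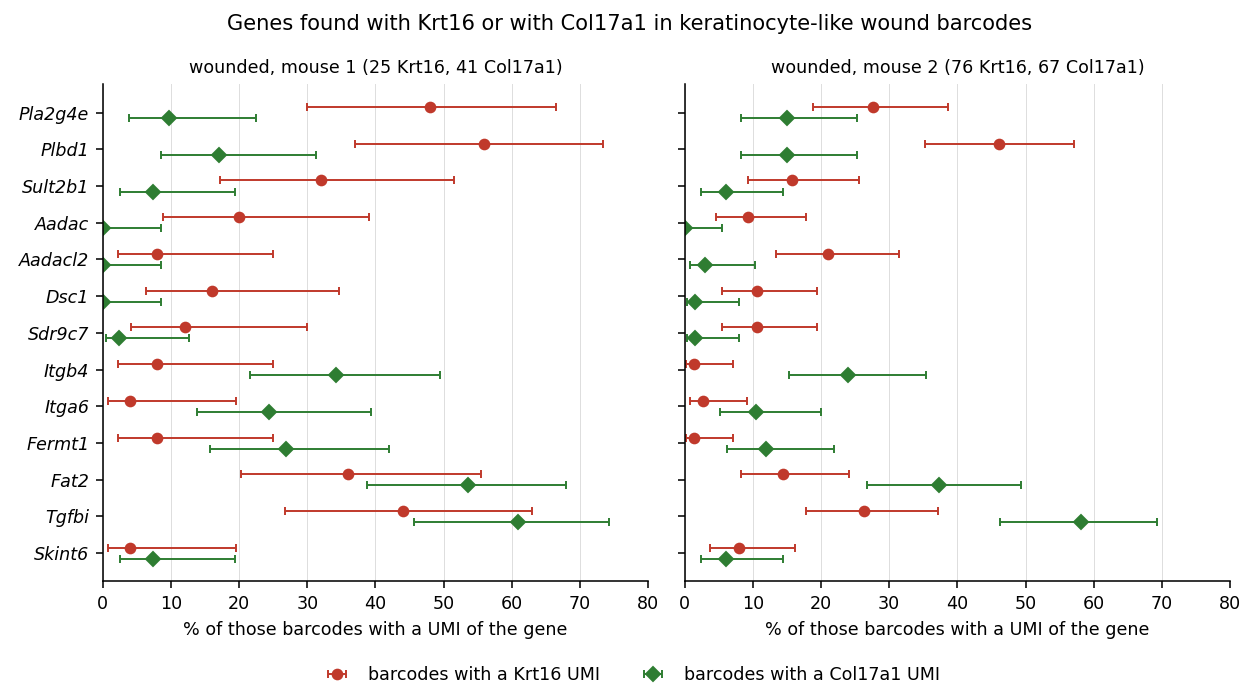
Percent of members with a UMI of each of 13 genes among members with a Krt16 UMI and among members with a Col17a1 UMI, for each wounded mouse, with 95% Wilson intervals for counting error. Pla2g4e, Plbd1, Sult2b1, Aadac and Dsc1 were more frequent beside Krt16, and Itgb4, Itga6, Fermt1, Fat2 and Tgfbi more frequent beside Col17a1, in both mice.

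Against the same gate in unwounded skin, 2750 of 8469 genes were higher in wounded members (32.5%) and 2282 were lower (26.9%), with a median log2 fold change of -0.07 over all genes tested. With so large a background, a share of a gene list near these percentages says nothing particular about it. Krt16 and Krt6a were far above unwounded levels. Krt16 stood at 282 and 448 CPM in wounded members against 24.1 and 1.83 CPM in unwounded gated barcodes, a log2 fold change of 4.75 ± 0.35 (SE, edgeR adjusted p = 5.32e-39). Krt6a stood at 36.4 and 67.5 CPM in wounded members against 2.83 and 1.83 CPM (4.42 ± 0.76, edgeR adjusted p = 3.07e-08). Krt6b had 0 UMIs in both unwounded sums and was at least 16.6-fold higher in wounded members, taking 3 counts over the group as the limit, but it was too low in counts to be tested. The neutrophil and keratinocyte alarmin S100a9 stood at 27.3 and 57.9 CPM in wounded members against 0 in unwounded ones, and at 31.7 and 53.2 CPM in the other wounded barcodes. Krt17 was too low to be tested, at 0 and 19.3 CPM in wounded members against 15.6 and 10.99 CPM in unwounded ones. Of 18 activation genes 3 were tested, and all 3 rose (Krt16, Krt6a and S100a9, median 4.75). These 3 passed the count filter only through their wounded sums. The filter thus set their direction in advance, and nothing is read from the count.

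Adhesion and lipid genes went both ways, in shares near those of all genes tested. Of 14 desmosome and junction genes 5 rose and 3 fell (median 0.10), of 11 basal and hemidesmosome genes 4 rose and 3 fell (median -0.13), and of 12 barrier lipid genes 4 rose and 1 fell (median -0.10). Fat2 was among the genes that rose, at 1011 and 988 CPM in wounded members against 136 and 167 CPM in unwounded ones (log2 2.75 ± 0.28, edgeR adjusted p = 1.22e-21). Itgb4 stood at 346 and 366 CPM in wounded members against 101 and 80.6 CPM (2.00 ± 0.28), and Fermt1 at 401 and 304 CPM against 56.7 and 95.2 CPM (2.22 ± 0.29). Col17a1 rose by less, at 810 and 410 CPM in wounded members against 317 and 311 CPM (0.91 ± 0.26, edgeR adjusted p = 0.00137), and its call was lost without wounded mouse 1. Dst and Plec, which tie hemidesmosomes to the cytoskeleton, went the other way. Dst stood at 255 and 198 CPM in wounded members against 700 and 654 CPM (-1.59), and Plec at 36.4 and 57.9 CPM against 279 and 222 CPM (-2.28 ± 0.37).

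Pla2g4e stood at 810 and 593 CPM in wounded members against 36.9 and 22.0 CPM in unwounded ones (log2 4.53 ± 0.31, edgeR adjusted p = 4.45e-45). In unwounded skin its level overlapped between gated and other barcodes, at 36.9 and 22.0 CPM against 24.9 and 25.5 CPM. Sdr9c7 stood at 182 and 203 CPM in wounded members against 4.25 and 3.66 CPM (5.53 ± 0.52, edgeR adjusted p = 9.39e-25), and Sult2b1 at 346 and 473 CPM against 48.2 and 36.6 CPM (3.31 ± 0.30). Sdr9c7 passed the count filter only through its wounded sums, so the filter set its direction in advance and its p-value is no support. Pla2g4e would not have passed on its unwounded sums alone, so the filter favoured a rise. Cers3, the ceramide synthase of very long acyl chains, stood at 246 and 101 CPM in wounded members against 31.2 and 27.5 CPM (2.44 ± 0.40), with 83.4 and 76.7 CPM in the other wounded barcodes. Elovl4, which elongates those fatty acids, fell to 27.3 and 38.6 CPM in wounded members, against 359 and 315 CPM in unwounded ones (-3.24 ± 0.39, edgeR adjusted p = 2.45e-15). Plbd1 stood at 938 and 998 CPM in wounded members against 106 and 110 CPM (3.19 ± 0.28), and Tgfbi at 2467 and 3655 CPM against 319 and 518 CPM (2.91 ± 0.33). Plbd1 and Tgfbi were chosen after their values were seen.

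Genes of the resting suprabasal epidermis were low in wounded members. Of 8 tested suprabasal genes 6 fell and 0 rose (median -3.08), beside 26.9% and 32.5% of all genes tested. Krt1, Krt10, Krt77 and Krt80 passed the count filter only through the unwounded sums, so the filter set their direction in advance. Flg2, another of the 6 (log2 -4.52), would not have passed on its wounded sums alone. Nothing is therefore read from the count of 6. Krt10, the type I keratin of the spinous layer, stood at 9.10 and 9.64 CPM in wounded members, from 3 UMIs in all, against 146 and 156 CPM in unwounded gated barcodes (log2 -3.91 ± 0.58, edgeR adjusted p = 9.45e-11). Krt1, its partner, stood at 18.2 and 14.5 CPM in wounded members against 68.0 and 89.7 CPM (-2.25 ± 0.60, edgeR adjusted p = 0.000443). Krt77 stood at 18.2 and 4.82 CPM in wounded members against 194 and 249 CPM (-4.46 ± 0.54). Krt80 had 0 UMIs in wounded members against 48.2 and 34.8 CPM and was at least 4.39-fold lower. Krt15, a keratin of basal and hair follicle stem cells, had 0 UMIs in wounded members against 87.9 and 86.1 CPM in unwounded ones and was at least 9.20-fold lower. With 1 of the wounded or unwounded mice left out, 4 or 5 suprabasal genes fell. After subtraction of the length-expected counts, 4 of 9 fell and 2 rose.

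**Figure D4:**
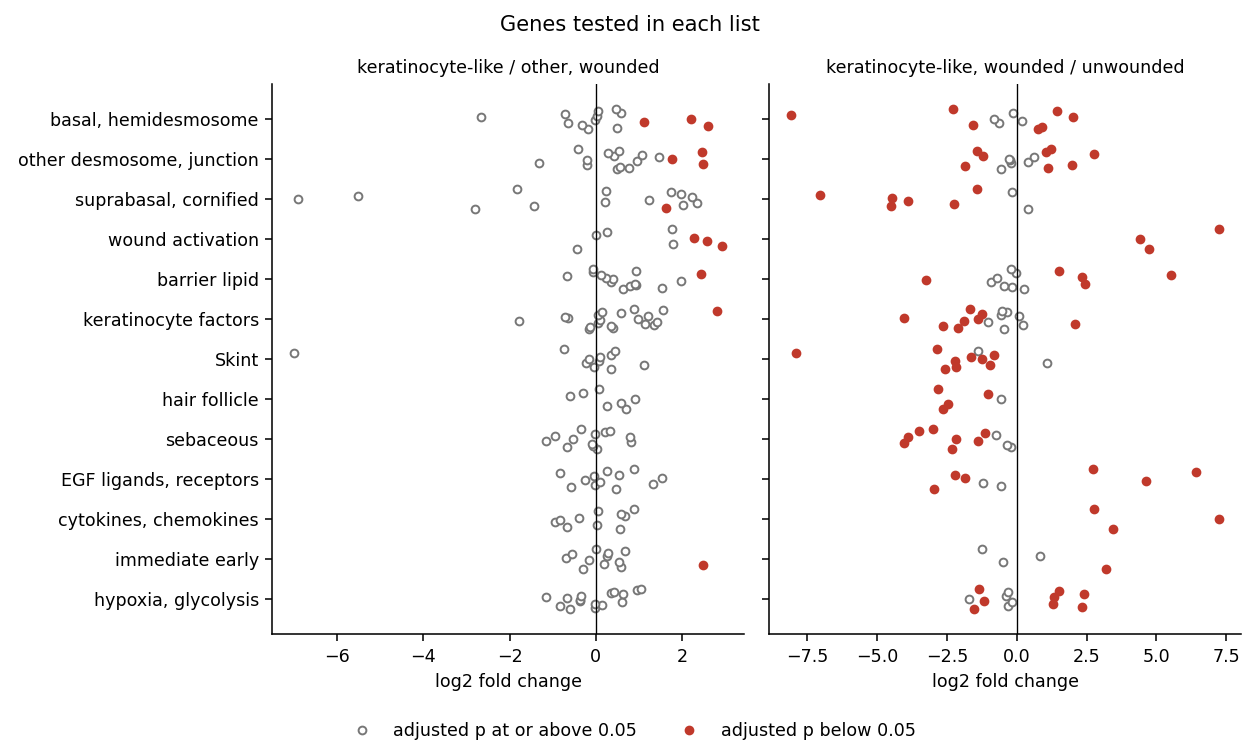
Log2 fold change of each tested gene of 13 gene lists, in keratinocyte-like against other barcodes of the wounded libraries (left) and in wounded against unwounded keratinocyte-like barcodes (right), with filled points for adjusted p below 0.05. On the right, the 6 filled suprabasal and 9 filled Skint points lie below 0, and the 3 filled activation points lie above it. The 3 activation genes passed the count filter only through the wounded sums. Krt1, Krt10, Krt77, Krt80 and Skint7 passed it only through the unwounded sums. Over all genes tested there, 26.9% fell and 32.5% rose.

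Of 15 epithelial transcription factors tested 7 fell and 1 rose (median -1.03), beside 26.9% and 32.5% of all genes tested, and 7 did not pass. Grhl1, a grainyhead factor of desmosomal cadherin genes, stood at 27.3 and 19.3 CPM in wounded members against 189 and 97.1 CPM in unwounded ones (-2.65 ± 0.48). Esrp1, a regulator of epithelial splicing kept on the same list, stood at 72.8 and 53.0 CPM against 306 and 222 CPM (-2.09 ± 0.35). Grhl3, needed for barrier formation and wound closure, was the 1 that rose, at 36.4 and 53.0 CPM in wounded members against 14.2 and 7.33 CPM (2.09 ± 0.63, edgeR adjusted p = 0.00214), and that call was lost without wounded mouse 2. Grhl3 passed the count filter only through its wounded sums, so the filter set its direction in advance. Grhl1 would not have passed on its wounded sums alone. Of 5 hair follicle genes 4 fell (median -2.45) and of 11 sebaceous gland genes 8 fell (median -2.18), both beside 26.9% of all genes tested.

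In the EGF receptor family and its ligands, 3 of 8 genes rose and 3 fell, beside 32.5% and 26.9% of all genes tested. Egfr, the main receptor of keratinocytes, fell to 137 and 101 CPM in wounded members, against 1029 and 800 CPM in unwounded ones (-2.96 ± 0.33). Its ligand Tgfa stood at 109 and 106 CPM in wounded members against 25.5 and 5.49 CPM (2.71 ± 0.48), with 44.6 and 65.1 CPM in the other wounded barcodes. Nrg1, a ligand of Erbb3 and Erbb4, stood at 920 and 771 CPM in wounded members against 4.25 and 16.5 CPM (6.41 ± 0.37), but at 678 and 675 CPM in the other wounded barcodes. Its member level was 1.85 and 1.82 times the length-expected value, and that of Erbb4 1.22 and 1.14 times. Tgfa and Nrg1 passed the count filter only through their wounded sums, so the filter set their direction in advance. Of the listed nuclear-retained RNAs, 7 of 7 fell (median -4.51). Among the tested genes of the remaining response lists, 3 of 3 cytokine genes rose, and 3 of 9 migration genes rose and 1 fell. Of 13 hypoxia and glycolysis genes 5 rose and 3 fell, of 9 NF-kB genes 1 rose and 3 fell, and of 4 immediate early genes 1 rose. Given the shares over all genes tested, nothing is read from these counts.

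Markers of other cell types moved along with these differences, while 32.5% of all genes tested rose and 26.9% fell. Of the endothelial markers 4 of 4 tested rose, and their sum over the whole list was 510 and 632 CPM in wounded members against 93.5 and 91.6 CPM in unwounded ones, with 609 and 581 CPM in the other wounded barcodes. Of the lymphocyte markers 3 of 3 rose, with sums of 492 and 419 CPM in wounded members against 29.8 and 25.6 CPM, and with 553 and 513 CPM in the other wounded barcodes. Of the muscle markers 8 of 9 fell, and of the fibroblast markers 4 of 8 fell and 2 rose. In wounded members the lymphocyte sum was 1.61 and 1.61 times its length-expected value and the endothelial sum 1.75 and 2.55 times. Of the neutrophil markers 2 of 2 tested rose, of the melanocyte and Schwann cell markers 2 of 2, and of the smooth muscle markers 4 of 6 with 1 that fell. The tested lymphocyte and neutrophil markers passed the count filter only through the wounded sums, so the filter set their direction in advance. The melanocyte and Schwann cell list summed to only 52.4 and 44.0 CPM in unwounded gated barcodes. At such unwounded sums, not all tested genes of that list or of the endothelial list could pass without their wounded sums. Nothing is therefore read from the counts of these lists. The part of these markers in the differences was not tested.

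The 12 largest rises that also reached 50 CPM and 5 times the length-expected value in both wounded sums included receptors and enzymes of immune cells. Each of the 12 passed the count filter only through its wounded sums, so the filter set the direction in advance. Trem3, a receptor of myeloid cells, stood at 300 and 284 CPM in wounded members against 0 in unwounded ones, at least 122-fold higher, and at 438 and 379 CPM in the other wounded barcodes. Padi4, a peptidylarginine deiminase of neutrophils, stood at 72.8 and 111 CPM in wounded members against 0 and 1.83 CPM, and at 64.0 and 65.4 CPM in the other wounded barcodes. Ms4a1, the B cell antigen CD20, stood at 81.9 and 62.7 CPM in wounded members against 0, and at 69.8 and 88.0 CPM in the other wounded barcodes. Spp1, osteopontin, stood at 63.7 and 67.5 CPM against 0, and at 62.1 and 64.2 CPM in the other wounded barcodes. Trem3 was higher in the other wounded barcodes of both mice, Padi4 was higher in members of both, and the ranges of Ms4a1 and Spp1 overlapped. The others were Thegl, Hemgn, Fgf23, Tex22, Cd300lf, Aifm3, Slc22a20 and the long noncoding RNA Halr1. Halr1 was 1 of those higher in members of both mice, at 137 and 77.1 CPM in members against 19.4 and 30.2 CPM in the other wounded barcodes.

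The 12 largest falls all had 0 UMIs in wounded members and are bounded only by the 3-count limit. Each of them passed the count filter only through its unwounded sums, so the filter set the direction in advance. Pnpla5, a lipase of the patatin family, was at 0 in wounded members against 123 and 93.4 CPM in unwounded gated barcodes, at least 11.5-fold lower. Slc25a3, the mitochondrial phosphate carrier, was at 0 in wounded members against 108 and 93.4 CPM, at least 10.6-fold lower. Nampt, an enzyme of NAD synthesis, and Srsf1, a splicing factor, were at least 9.76-fold and 9.53-fold lower. The others were Sema3b, Morf4l2, C4b, Mapk12, Krt15, Skint7, Dnm3os and Arfip2, with bounds between 7.16-fold and 10.0-fold. All 12 were also low in the other wounded barcodes, at 0 to 21.4 CPM. In unwounded skin, only Pnpla5, Krt15 and Skint7 had both gated sums above both sums of the other barcodes. Dnm3os, for 1, stood at 115 and 124 CPM in the other unwounded barcodes against 73.7 and 75.1 CPM in gated ones.

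Skint genes, butyrophilin-like surface proteins of mouse epidermis of which Skint1 is needed for the development of epidermal gamma delta T cells, were well above the other barcodes in unwounded gated barcodes and close to them in wounded members. Skint5 (chr4:113477891-113999503, GRCm38) stood at 519 and 338 CPM in wounded members against 1273 and 1375 CPM in unwounded gated barcodes (log2 -1.65 ± 0.30, edgeR adjusted p = 1.3e-07). In the other barcodes it stood at 366 and 375 CPM in wounds against 52.2 and 106 CPM in unwounded skin. Its level in wounded members was 2.14 and 1.63 times the length-expected value. Skint6 stood at 464 and 516 CPM in wounded members against 860 and 923 CPM (-0.83 ± 0.28), and at 371 and 371 CPM in the other wounded barcodes. Skint9 stood at 27.3 and 14.5 CPM in wounded members against 196 and 87.9 CPM, and at 29.1 and 31.8 CPM in the other wounded barcodes. Skint7 had 0 UMIs in wounded members against 68.0 and 84.2 CPM in unwounded gated barcodes, at least 8.05-fold lower. Of 11 Skint genes tested 9 fell in wounded members and 0 rose, also with RLE factors and with library totals, while 6 fell without wounded mouse 1 and 4 without wounded mouse 2. Over all genes tested in wounded against unwounded members, 26.9% fell and 32.5% rose. Skint7 passed the count filter only through the unwounded sums, so the filter set its direction in advance. Skint9 would not have passed on its wounded sums alone. The count of falls thus includes falls that the filter set or favoured. The Skint copies are similar in sequence, so the division of reads among them is uncertain.

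**Figure D5:**
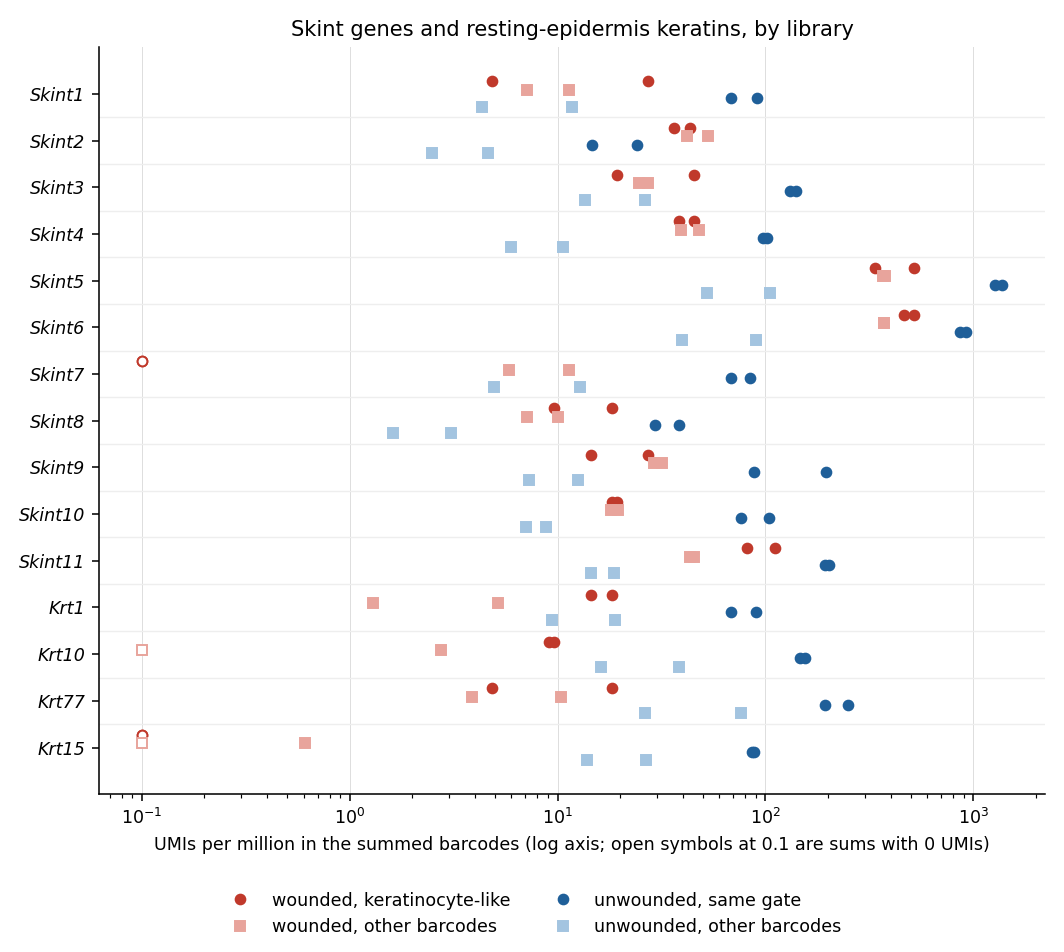
Levels in CPM of Skint1 to Skint11, Krt1, Krt10, Krt77 and Krt15 in wounded keratinocyte-like barcodes, other wounded barcodes, unwounded barcodes passing the same gate and other unwounded barcodes, 1 point per library. Skint5 and Skint6 stand far higher in unwounded gated sums than in other unwounded sums, while the wounded keratinocyte-like and other wounded sums lie between 338 and 519 CPM.

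Whether members responded differently from the other barcodes was tested as an interaction in edgeR, the difference between members and other barcodes in wounds minus the same difference in unwounded skin. Of 18129 genes 1597 were higher (8.81%) and 299 lower (1.65%) with TMM factors, against 207 higher and 581 lower with RLE factors and 202 higher and 607 lower with library totals. Since this split turns with the scaling, only results on named genes that all 3 share are given. All 11 Skint genes were lower with each of the 3 scalings (median -2.72 with TMM, -3.45 with RLE factors and -3.47 with totals), with 10 at 200 or more genes per barcode, 7 without unwounded mouse 1, 8 without wounded mouse 2 and 6 when the gate was applied after thinning every barcode to 200 UMIs. The summed Skint level was 1.81 and 1.84 times its length-expected value in wounded members and 1.22 and 1.36 times in the other wounded barcodes. In unwounded skin it was 209 and 158 times in gated barcodes and 14.0 and 19.9 times in the others. The part of this length-scaled background in the Skint interaction was not tested. Pla2g4e was higher with an interaction of 3.43 (edgeR adjusted p = 1.92e-23), 2.71 with RLE factors and 2.68 with totals.

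The share of barcodes that passed the gate did not give a stable order of the groups. It was 4.72% (95% Wilson interval 4.14% to 5.37%) and 4.55% (4.24% to 4.89%) in wounded skin, against 6.68% and 6.83% in unwounded skin. Unwounded barcodes were deeper, and the gate counts UMIs. With barcodes thinned to 200 UMIs before the gate and shallower ones left out, which kept 2955 of 4621 and 5695 of 16075 barcodes in wounded skin and all 6964 and 9839 in unwounded skin, the share was 3.21% and 4.99% in wounded skin against 0.976% and 1.99% in unwounded skin, which turns the direction. The thinned sets held 95 and 284 members in wounded skin and 68 and 196 barcodes in unwounded skin. In their sums, which were added for the level comparisons after the data were seen, Krt16 stood at 705 and 547 CPM in wounded members against 140 and 0 CPM, and Pla2g4e at 2051 and 837 CPM against 56.1 and 19.2 CPM. The shares carry no test, because the gate chose the members.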

How the data were processed

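Nuclei were released by grinding, and libraries followed the v3.1 protocol of 10x Genomics for 3' ends, per the labels' protocols. The authors deposited raw UMI counts for each gene in each barcode. Cell Ranger 5.0.1 and the build GRCm38 are named in the submitters' processing notes. The use of intronic reads, the annotation release and the cell calling were not given in the sources used here. Gene positions and lengths came from GENCODE vM21, which matched 32235 of 32285 genes.

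Counts of gated and of other barcodes were summed per library, filtered with filterByExpr, scaled with TMM and fitted with edgeR 4.0.16 (glmQLFit and glmQLFTest, R 4.3.3), without a replicate block. DESeq2 1.42.0, other scalings, gates, depths and left-out mice were tried. Doublets were not called, since the membership rule has no such step. The members, the 26 gene lists and the tests were chosen with earlier results of these data known. Named genes were the 12 largest rises, falls and class differences at adjusted p below 0.05 and 50 CPM, plus up to 4 genes of smallest p per list. Rises and falls also needed both mice of a group on the same side of both mice of the other. Rises and class differences needed at least 5 times the length-expected level in both wounded sums. Predicted, mitochondrial, ribosomal and gate genes were left out. Replicate numbers do not pair the mice: deviations of same-numbered samples correlated at 0.0358 over 8469 genes. Replicates were distinct: the chi-square per gene between mice of a group was 1.46 in wounded and 2.97 in unwounded skin. Tested on simulated data, 4-fold changes were recovered for 74% of 100 genes between wounded and unwounded sums, and 2-fold changes for 29%. The simulated sums shared a single mean profile and a spread set in advance, and only genes above a set level were changed. The real groups differ in profile and their own spread was not used, so these rates do not give the power of these data. Intervals and floors cover counting error only.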

Additional observations from a re-analysis of the deposited data

Results flagged for a closer look

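Among the genes named by size of change, the activation genes and the Skint genes, 13 differed between wounded and unwounded skin in how far keratinocyte-like barcodes stood from the other barcodes, by the edgeR interaction test with TMM, RLE and library-total scaling alike. Values are the difference in wounds minus the difference in unwounded skin, on the log2 scale with TMM factors. Pla2g4e was the 1 of these that was higher, at 3.43. Its class difference was 2.89 ± 0.19 in wounds and -0.54 in unwounded skin.

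The Skint genes were all lower, at -2.26 for Skint1, -1.94 for Skint2, -1.96 for Skint3, -2.99 for Skint4, -3.25 for Skint5, -2.72 for Skint6, -2.63 for Skint8, -3.78 for Skint9, -2.74 for Skint10 and -1.66 for Skint11. In wounded members the summed Skint level was only 1.81 and 1.84 times its length-expected value. The part of that background in these differences was not tested. Skint7 had 0 UMIs in wounded members, so its fitted value of -9.40 is no bound, and the same holds for Pnpla5 at -7.85. With the gate applied after thinning to 200 UMIs, Skint7 and Pnpla5 missed the threshold (edgeR adjusted p = 0.486 and 1).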

How the results depend on the processing

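Between wounded and unwounded members, where 2750 genes rose and 2282 fell, the number higher was 5579 with no low count filter, 969 with at least 3 gate genes, 1755 with the gate without Trp63, 533 with the gate after thinning to 200 UMIs, 4985 with DESeq2, 1067 with sums thinned to the smallest, 1254 with length-expected counts subtracted and 1375 to 2432 with 1 mouse left out. The number lower was 711 with at least 3 gate genes, 1380 without Trp63, 358 with the thinned gate, 689 with thinned sums and 1189 to 2031 with 1 mouse left out. With a replicate block, which the design does not call for, 2648 rose and 2174 fell. Within wounds, where 103 genes were higher and 21 lower, 54 were higher without Trp63, 57 at 200 genes or more, 28 with the thinned gate and 24 to 103 with 1 mouse left out. The number lower was 35 with RLE factors, 213 without Trp63, 9 at 200 genes or more, 304 without the 5% of barcodes with most UMIs, 66 with the thinned gate and 17 to 206 with 1 mouse left out. For the interaction, with 1597 higher and 299 lower, the number higher was 207 with RLE factors, 202 with library totals, 647 with at least 3 gate genes, 34 without Trp63, 29 without the 5% of most UMIs, 1 with the thinned gate and 19 to 1040 with 1 mouse left out. The number lower was 581, 607, 132, 617, 575 and 106 under the same settings and 104 to 541 with 1 mouse left out. The cause of these moves was not tested. Shares of members were 2.40% and 1.57% in wounded and 2.79% and 2.09% in unwounded skin with at least 3 gate genes, 3.25% and 2.88% against 4.49% and 4.46% without Trp63, 5.28% and 7.90% against 6.68% and 6.87% at 200 genes or more, and 3.21% and 4.99% against 0.976% and 1.99% with the thinned gate. No fold change of a named gene that passed the threshold turned sign in any of these settings. With 1 wounded mouse left out, the remaining sum is assumed to vary like the others. A gene at 0 UMIs may have a level of up to 27.3 and 14.5 CPM in the wounded sums, and fewer genes could be tested under the gates that kept fewer barcodes.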
